A study of Mus musculus with 4 samples.

Results

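ATF4 and ATF5 are transcription factors that switch on genes for amino acid supply, and 32 genes were followed here: Atf4, Atf5 and targets of these factors in amino acid transport, amino acid synthesis and one-carbon metabolism. They were chosen by name, with earlier results of these data known. All 32 were found among the 41543 gene symbols counted in each library. They also passed the filter on low counts, which 16112 genes passed. All libraries came from E14TG2a, a line of embryonic stem (ES) cells from mouse, kept on gelatin in serum medium with the cytokine LIF, glutamine, non-essential amino acids, pyruvate and β-mercaptoethanol. There were 2 libraries of KAT6A knockout (KO) cells, made by CRISPR/Cas9 editing of the gene of the histone acetyltransferase KAT6A, and 2 libraries of control cells of the same line. The labels do not say how many edited clones were used or whether a group's libraries were grown apart, so each p-value is set against the spread of these particular samples, and that spread may be technical.

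When amino acids run short or proteins misfold, kinases phosphorylate the initiation factor eIF2. Translation in general then slows, while the ATF4 protein is made in larger amounts from its existing mRNA, owing to short reading frames upstream of the coding sequence. ATF4 pairs with partners of the C/EBP family on a composite site called the C/EBP-ATF response element (CARE) and activates genes that import and make amino acids. The counts below measure mRNA and not ATF4 protein or its translation.

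The libraries held 27494041 to 37354623 counts. Kat6a itself had 242 and 86.4 CPM (counts scaled to the library's total) in the 2 KO libraries, against 145 and 143 CPM in the control libraries, so KO libraries lay on both sides of the controls (log2 fold change 0.19, edgeR adjusted p = 0.772). A short edit need not lower the count of a whole gene, and the directions below rest on the labels. All 10 ES cell markers checked, among them Pou5f1, Sox2 and Nanog, were expressed, with summed levels of 6608 and 7006 CPM in KO libraries and 5189 and 5228 CPM in control libraries. By edgeR's test 3 of these 10 rose (Esrrb, Tfcp2l1 and Dppa5a) and 0 fell, against 5.76% and 8.57% of all genes tested. Of 10 fibroblast markers 5 passed the filter on low counts, with Thy1 the highest at 17.9 and 16.4 CPM in KO libraries and 12.3 and 12.7 CPM in control libraries, and Lum was at 0 in all 4 libraries. The list had a summed 34.2 and 29.0 CPM in KO libraries and 26.4 and 26.4 CPM in control libraries. Of 10 primitive endoderm markers 6 fell by edgeR's test, against 8.57% of all genes tested, and their summed level was 511 and 1154 CPM in KO libraries, against 2382 and 2272 CPM in control libraries. None of the 10 was at 0, and their part in the results below was not tested. In bulk RNA, fewer cells of a type and less RNA per cell cannot be told apart.

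Of the 26 members with an entry among RefSeq promoters (GRCm38.p6), 8 held the core letters of a CARE, TTNCATCA or its reverse complement TGATGNAA, between 250 bases before and 50 bases after an annotated start. That is 30.8% of these members, against 4.51% of all 27025 genes in the same table, searched on both strands. The members were picked as targets of ATF4, so this share is a description. The 8 stretches are shown because the levels of these genes are compared below with that of Atf4, with the matching letters in capitals and each written 5′ to 3′ along the gene's own strand.
Asns (chr6:7693210-7693262, minus strand): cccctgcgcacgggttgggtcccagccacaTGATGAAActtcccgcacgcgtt
Chac1 (chr2:119351019-119351086, plus strand): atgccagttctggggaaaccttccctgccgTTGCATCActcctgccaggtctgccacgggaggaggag
Nupr1 (chr7:126625543-126625610, minus strand): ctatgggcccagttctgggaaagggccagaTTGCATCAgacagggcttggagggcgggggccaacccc
Pycr1 (chr11:120643814-120643881, minus strand): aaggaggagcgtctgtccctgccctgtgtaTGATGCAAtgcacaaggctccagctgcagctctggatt
Slc7a11 (chr3:50443642-50443709, minus strand): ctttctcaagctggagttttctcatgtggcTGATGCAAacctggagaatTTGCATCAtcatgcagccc
Slc7a7 (chr14:54418048-54418115, minus strand): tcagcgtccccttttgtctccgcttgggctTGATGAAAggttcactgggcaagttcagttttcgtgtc
Slc1a4 (chr11:20332699-20332728, minus strand): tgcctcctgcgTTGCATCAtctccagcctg
Trib3 (chr2:152344028-152344057, minus strand): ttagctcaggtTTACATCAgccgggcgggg
The stretch of Asns holds the letters known as its nutrient-sensing response element, and that of Slc7a11, the cystine transporter gene, holds 2 matches in opposite orientation. Relative to the annotated start, the matches begin at position -23 in Asns, -193 in Chac1, -110 in Nupr1, -103 in Pycr1, -66 and -47 in Slc7a11, -141 in Slc7a7, -4 in Slc1a4 and 14 in Trib3. Slc7a7 has another match at position -1 of the same start. The windows of Atf4, Atf5, Shmt1 and Stc2 held no match, which says only that these letters are not in those windows. Slc7a3, Slc7a5, Slc1a5, Slc38a1, Eif4ebp1 and Cth have no entry in the table.

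The genes of both transcription factors rose in KO cells. Of the other 30 members 13.3% passed the test in either direction, close to the 14.3% of all genes tested. Of the 32 members, 3 rose (Atf4, Atf5 and Slc1a5) and 3 fell (Slc1a4, Shmt1 and Stc2) at an adjusted p under 0.05 in edgeR's quasi-likelihood test. Of all genes tested 5.76% were called higher and 8.57% lower, or 14.3% in either direction, so the number of members called was close to the background. Over the members the log2 fold change of KO over control had a median of 0.08 against 0.01 over all genes tested. It was 0.01 in KO replicate 1 and 0.16 in KO replicate 2. Both KO libraries lay above both controls for 14 members and below both for 9, against 31.5% and 32.8% of all genes tested. The summed level of all members was 6230 and 6595 CPM in KO libraries and 6027 and 6030 CPM in control libraries.

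**Figure D1:**
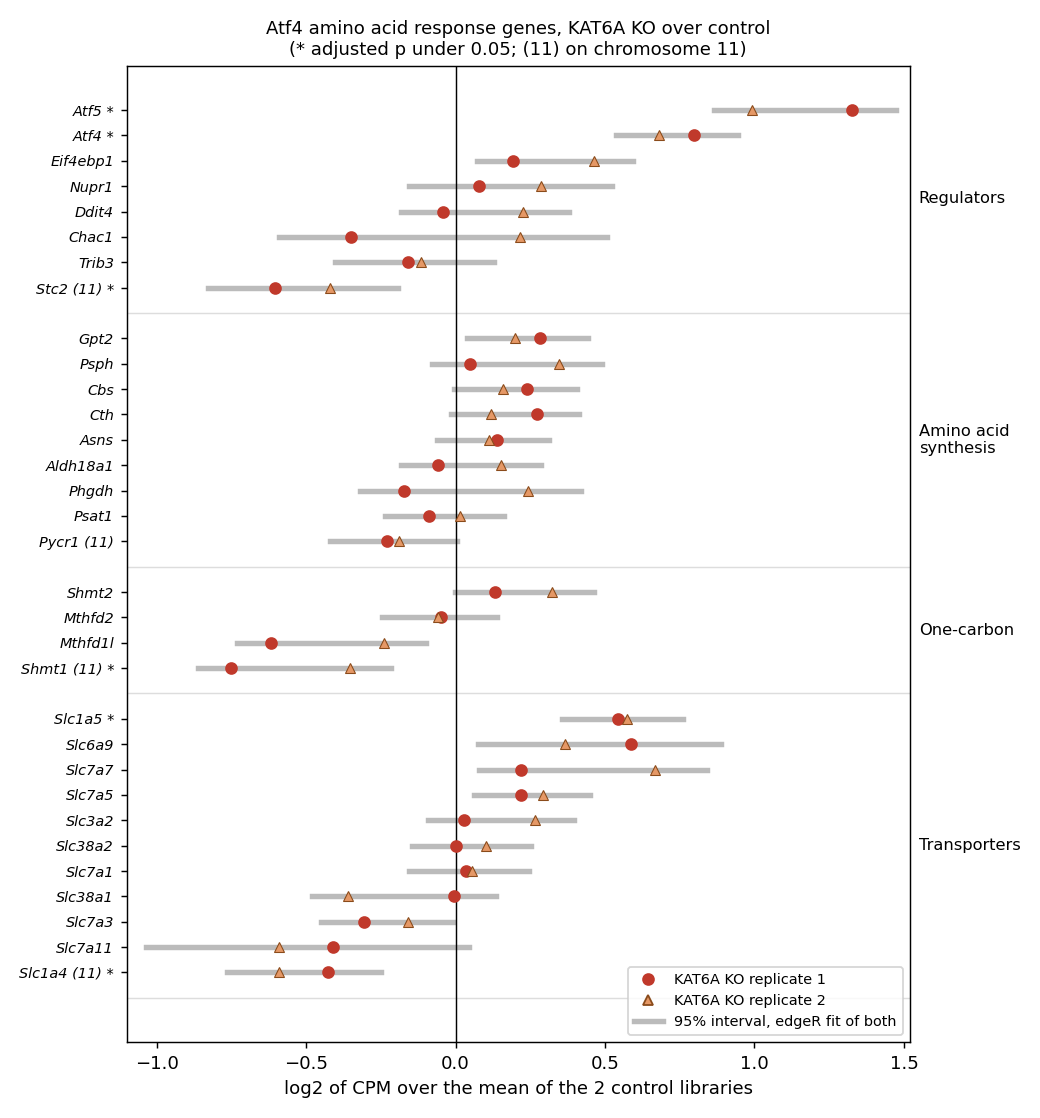
Each of the 32 members is a row, grouped by role. Points give the log2 of CPM in a KO library over the mean of the 2 control libraries, and grey bars the 95% interval of the edgeR fold change. Atf5 and Atf4 stand furthest to the right, at 1.17 and 0.74, and of the 4 members on chromosome 11, marked (11), each lies left of 0.

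Among the regulators, Atf4 rose 1.67-fold. It had 411 and 379 CPM in KO libraries, against 242 and 231 CPM in control libraries, from 8563 to 12498 counts a library. Both KO libraries stood above both controls, and they differed from each other by less than from the controls. On the log2 scale the fold change was 0.74 ± 0.085 (SE; edgeR adjusted p = 0.0093). Atf4 lies on chromosome 15 at 80255184 to 80257541, on the plus strand (GRCm38, GENCODE M21).

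Atf5, the closest relative of Atf4 in this response and itself controlled through upstream reading frames, rose 2.25-fold. It had 152 and 120 CPM in KO libraries, against 62.6 and 58.4 CPM in control libraries. The KO libraries stood apart from the controls, and KO replicate 1 was the higher of the pair. On the log2 scale it rose by 1.17 ± 0.127 (SE; edgeR adjusted p = 0.0085). Atf5 lies on chromosome 7 at 44812256 to 44816658, on the minus strand, and overlaps Nup62, a nuclear pore gene on the other strand. Nup62 had 400 and 446 CPM in KO libraries and 349 and 343 CPM in control libraries (log2 fold change 0.29, edgeR adjusted p = 0.076). The kit marks strand, but the setting used in counting is not given, so reads of this pair cannot be told apart with certainty. The same holds for Shmt1 and Smcr8, Shmt2 and Ndufa4l2, Psph and Cct6a, Slc7a7 and Oxa1l, and Slc6a9 with B4galt2 and Ccdc24, and Cth overlaps Gm43314 on its own strand. The calls of Atf4 and Atf5 held with each library left out.

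Stc2, which encodes the secreted glycoprotein stanniocalcin 2, fell by a log2 fold change of 0.51 (edgeR adjusted p = 0.0498). Both KO libraries lay below both controls, as for 32.8% of all genes tested, at 13.9 and 15.8 CPM against 22.3 and 19.9 CPM. This value sits at the threshold: the call ended without control replicate 1 (edgeR adjusted p = 0.45), without control replicate 2 (edgeR adjusted p = 0.22), with 3 other ways of scaling the libraries (edgeR adjusted p from 0.052 to 0.058) and with a minimum of 1 CPM (edgeR adjusted p = 0.051). The other 5 regulators did not pass. Eif4ebp1, which encodes a repressor of cap-dependent translation, had 408 and 492 CPM in KO libraries and 350 and 364 CPM in control libraries (log2 fold change 0.33, edgeR adjusted p = 0.087). Trib3, a pseudokinase gene that feeds back on ATF4, had 39.0 and 40.2 CPM in KO libraries and 46.9 and 40.3 CPM in control libraries, a log2 fold change of -0.14 (95% interval -0.40 to 0.13). Chac1, which encodes a glutathione-degrading enzyme, was low, at 3.52 and 5.20 CPM in KO libraries and 4.47 and 4.48 CPM in control libraries. Nupr1, a stress-induced chromatin protein gene, and Ddit4, which encodes the mTORC1 inhibitor REDD1, had log2 fold changes of 0.18 and 0.10.

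**Figure D2:**
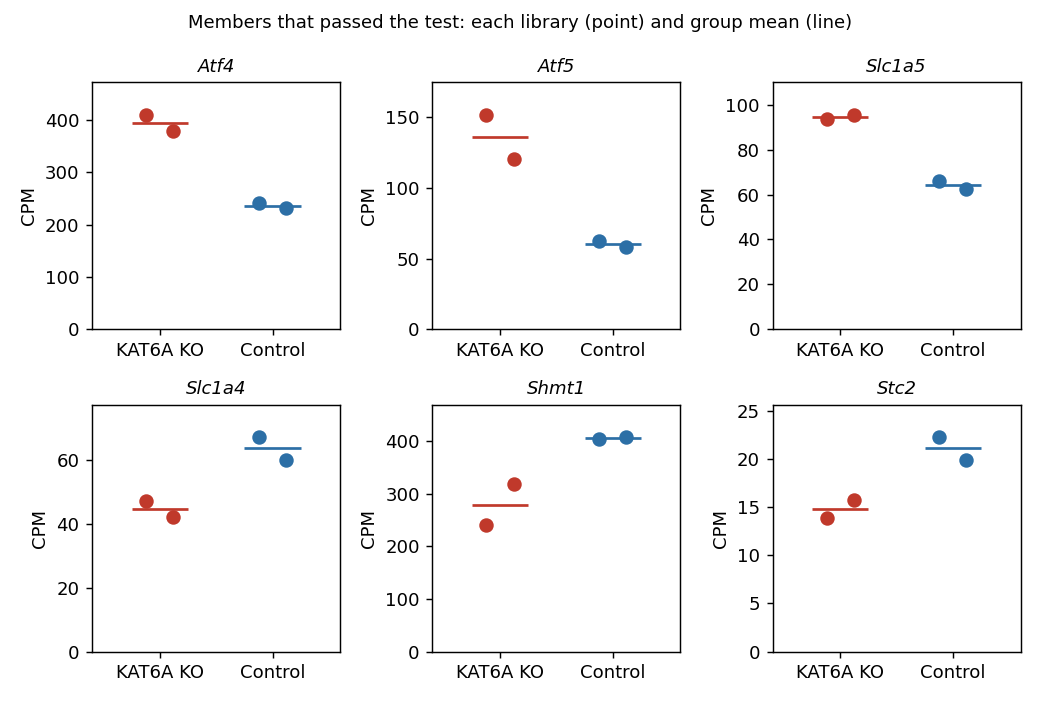
CPM of the 6 members that passed the test, with KAT6A KO left of control in each panel, 1 point a library and a line at the group mean, on axes that start at 0. The panels were picked by the test on these same libraries, and the groups do not overlap in any of them. Over all genes tested, both KO libraries lay above both controls for 31.5% and below both for 32.8%. The KO libraries lie furthest apart for Shmt1, at 241 and 318 CPM.

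None of the 9 genes of amino acid synthesis passed the test, where 14.3% of all genes tested did. DESeq2 also called 0 of them, and at an unadjusted p under 0.05 edgeR gave 1 higher, Gpt2, and 0 lower. In either direction DESeq2 called 2651 of all 16112 genes tested. Over all genes the calls at an unadjusted p were not counted, here or for the lists below. The log2 fold changes of the 9 genes ran from -0.21 to 0.24, with a median of 0.13. Asns, which encodes asparagine synthetase and is the textbook target of ATF4, was among the most abundant members. It had 756 and 742 CPM in KO libraries, against 683 and 690 CPM in control libraries. The KO libraries stood slightly above the controls, with a log2 fold change of 0.13 (95% interval -0.06 to 0.31, edgeR adjusted p = 0.30).

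The 3 enzymes that make serine did not move as a block. Phgdh, for the first step of that pathway, had 36.2 and 48.3 CPM in KO libraries and 38.5 and 43.0 CPM in control libraries, and the groups overlapped. Psat1, for the next step, had 489 and 526 CPM in KO libraries and 517 and 524 CPM in control libraries, again with overlap. Psph, for the last step, had 72.8 and 89.5 CPM in KO libraries and 72.5 and 68.4 CPM in control libraries. Phgdh and Psph were each higher in KO replicate 2 than in KO replicate 1. Their 95% intervals were -0.32 to 0.42 for Phgdh, -0.23 to 0.16 for Psat1 and -0.08 to 0.49 for Psph, on the log2 fold change scale.

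The other synthesis genes lay within the same band. Gpt2, the mitochondrial alanine transaminase gene, had 110 and 104 CPM in KO libraries and 92.2 and 88.4 CPM in control libraries (log2 fold change 0.24, edgeR adjusted p = 0.101). The transsulfuration genes Cth and Cbs, which turn homocysteine into cysteine, had log2 fold changes of 0.20 and 0.20, with both KO libraries above both controls (edgeR adjusted p = 0.17 and 0.16). For proline synthesis, Aldh18a1 had a log2 fold change of 0.05 and Pycr1, on chromosome 11, -0.21.

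Of the 4 genes of one-carbon metabolism 1 fell and none rose by edgeR's test, against 8.57% and 5.76% of all genes tested. DESeq2 called 2 lower and 0 higher, as did edgeR at an unadjusted p under 0.05 (Shmt1 and Mthfd1l). In either direction DESeq2 called 2651 of all 16112 genes tested. Shmt1, which encodes the cytosolic serine hydroxymethyltransferase, an enzyme that passes a carbon unit from serine to folate, is on chromosome 11 (60788104 to 60811718). It had 241 and 318 CPM in KO libraries, against 404 and 408 CPM in control libraries. Both KO libraries lay below the controls, KO replicate 1 further than KO replicate 2. In log2 units the fold change was -0.54 ± 0.135 (SE; edgeR adjusted p = 0.046). The call ended when control replicate 1 (edgeR adjusted p = 0.077) or control replicate 2 (0.094) was left out, and with upper quartile scaling or a minimum of 1 CPM (edgeR adjusted p = 0.052 each). Smcr8, which overlaps Shmt1 on the other strand, also fell (log2 fold change -0.35).

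Shmt2, the mitochondrial form, had 275 and 314 CPM in KO libraries and 243 and 259 CPM in control libraries, and did not pass (log2 fold change 0.23, edgeR adjusted p = 0.149). The ratio of Shmt2 to Shmt1 CPM was 1.14 and 0.988 in KO libraries, against 0.601 and 0.634 in control libraries. With 2 libraries a group, an exact permutation test of this ratio (two-sided) gives p = 0.333, the smallest this design allows. Mthfd1l, the mitochondrial formate-producing enzyme gene, had 142 and 184 CPM in KO libraries and 212 and 223 CPM in control libraries, and did not pass in the edgeR test (log2 fold change -0.42, adjusted p = 0.081). Mthfd2, the mitochondrial folate enzyme gene, had 210 and 209 CPM in KO libraries and 224 and 210 CPM in control libraries (log2 fold change -0.05, 95% interval -0.25 to 0.14).

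Of the 11 transporter genes 1 rose and 1 fell, which is 18.2% called, near the 14.3% of all genes tested. The 2 are relatives. Slc1a5 encodes ASCT2, an exchanger of glutamine and other neutral amino acids, and lies on chromosome 7 at 16781340 to 16798274. It had 93.6 and 95.6 CPM in KO libraries, against 66.0 and 62.6 CPM in control libraries. The groups were well apart and each was tight, and the log2 fold change was 0.56 ± 0.084 (SE; edgeR adjusted p = 0.0145). Slc1a4 encodes ASCT1, a related carrier of serine, alanine and other small neutral amino acids, and lies on chromosome 11 at 20302180 to 20332713. It had 47.2 and 42.2 CPM in KO libraries, against 67.1 and 59.9 CPM in control libraries. Both KO libraries lay below both controls, as for 32.8% of all genes tested (log2 fold change -0.51 ± 0.107 SE, edgeR adjusted p = 0.031).

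The ratio of Slc1a5 to Slc1a4 CPM was 1.98 and 2.27 in KO libraries, against 0.982 and 1.045 in control libraries, a 2.09-fold difference (exact permutation p = 0.333, two-sided, again the smallest possible). It was one of 5 such ratios, chosen after values were seen, and each gave this p, also after Benjamini-Hochberg adjustment. The other 3 were Atf5 to Atf4 (0.370 and 0.318 in KO libraries, 0.259 and 0.253 in control libraries), Slc7a5 to Slc3a2 (1.28 and 1.14 in KO libraries, 1.11 and 1.13 in control libraries) and Asns to Psat1 (1.54 and 1.41 in KO libraries, 1.32 and 1.32 in control libraries). Slc1a4 and Shmt1 are on chromosome 11, whose tested genes had a median log2 fold change of -0.46. The part of that chromosome in their 2 ratios was not tested. Neither call held with a control left out: without control replicate 1 the edgeR adjusted p was 0.072 for Slc1a5 and 0.29 for Slc1a4, and without control replicate 2 it was 0.13 and 0.085.

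The other 9 transporters did not pass. Slc7a5 and Slc3a2 encode the light and heavy chain of the LAT1 exchanger of large neutral amino acids. Slc7a5 had 377 and 396 CPM in KO libraries and 318 and 329 CPM in control libraries (log2 fold change 0.26, edgeR adjusted p = 0.079), and Slc3a2 had 294 and 347 CPM in KO libraries and 286 and 291 CPM in control libraries (0.15, adjusted p = 0.33). Of the carriers of cationic amino acids, Slc7a1 and the X-linked Slc7a3 had log2 fold changes of 0.05 and -0.23. Slc7a7, the y+LAT1 light chain gene, had 62.2 and 84.7 CPM in KO libraries and 50.03 and 56.7 CPM in control libraries, so that KO replicate 2 stood apart from KO replicate 1 (log2 fold change 0.46, edgeR adjusted p = 0.098).

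Slc7a11, the light chain gene of the cystine-glutamate exchanger, was close to the lower end of detection. It had 2.73 and 2.40 CPM in KO libraries and 4.11 and 3.13 CPM in control libraries, on 66 to 146 counts a library. Its interval, -1.03 to 0.05 on the log2 scale, reached further from 0 than that of any other member not called. The glutamine carriers Slc38a1 and Slc38a2 had log2 fold changes of -0.17 and 0.05. Slc6a9, the glycine transporter gene GlyT1, had 9.69 and 8.33 CPM in KO libraries and 6.98 and 5.94 CPM in control libraries (log2 fold change 0.48, edgeR adjusted p = 0.102).

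For the 26 members that did not pass, the precision of the comparison can be read from their 95% intervals. In 1 of them, Slc7a11, the interval reached a 2-fold change, against 27.8% of all genes that were not called. In 23 of the 26 the whole interval lay below 0.54, the lower bound for Atf4, and the exceptions were Slc7a7, Slc6a9 and Eif4ebp1. The difference between these genes and Atf4 was itself not tested. How many of all genes not called lie below this bound was not counted, so the 23 are a description only. All 7 members with a CARE match other than Slc1a4 were among the 26. Of all 16112 genes tested, 13803 were not called either, so this count is close to the background.

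**Figure D3:**
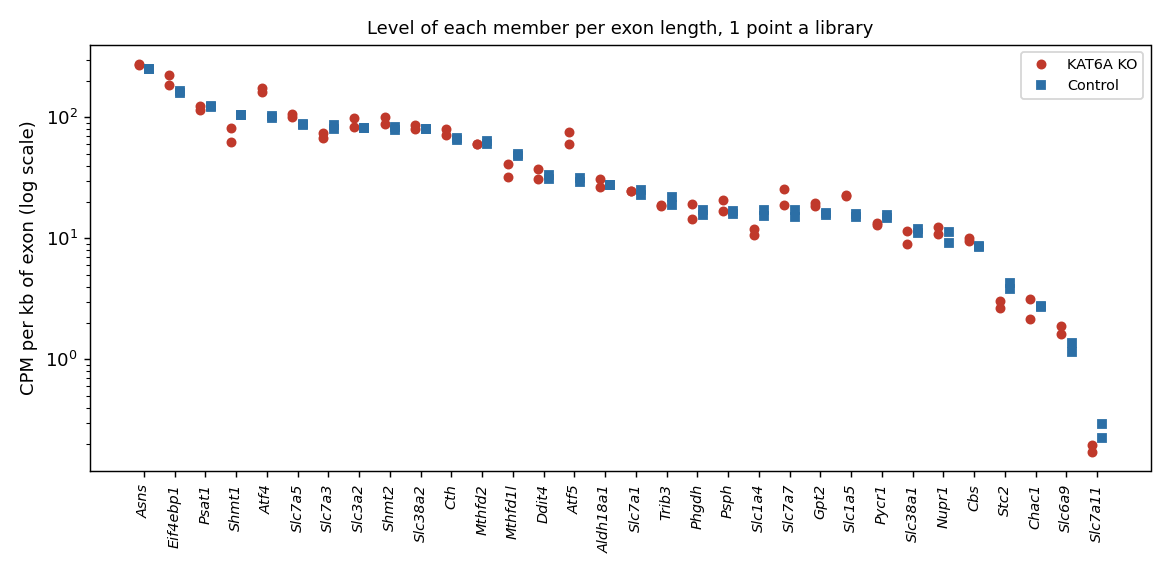
Level of each member in CPM per kb of exon on a log axis, with KAT6A KO points left of control points and genes ordered by the control mean. Asns is highest and Slc7a11 lowest in both groups, and Atf5 shows the widest step between the groups.

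Per exon length the members ranged widely. Asns was highest, at 276 and 271 CPM per kb in KO libraries and 250 and 252 CPM per kb in control libraries. Slc7a11 was lowest, at 0.196 and 0.172 CPM per kb in KO libraries and 0.295 and 0.225 CPM per kb in control libraries. Atf4 itself stood at 174 and 161 CPM per kb in KO libraries, against 102 and 98.0 CPM per kb in control libraries. In control libraries that was alongside Shmt1, at 104 and 105 CPM per kb, whereas Shmt1 had 62.2 and 81.9 CPM per kb in KO libraries. Atf5 had 76.2 and 60.4 CPM per kb in KO libraries, against 31.4 and 29.3 CPM per kb in control libraries. These lengths are the union of all annotated exons and can exceed the transcript the cells use, which lowers the value of genes with long alternative ends.

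The 3 members that fell are all on chromosome 11. Genes on that chromosome were lower as a whole in KO libraries, with a median log2 fold change of -0.46, and 40.5% of its 1322 tested genes were called lower, against 5.71% of all other genes tested, while 0.681% of its genes were called higher. Of the 4 members on chromosome 11, Shmt1 (-0.54), Stc2 (-0.51) and Slc1a4 (-0.51) fell, while Pycr1 (-0.21) did not pass. Within chromosome 11, 39.3%, 42.7% and 43.1% of the tested genes had a lower fold change than Shmt1, Stc2 and Slc1a4, which places them near the middle of that chromosome's genes. Of the 28 members elsewhere, 3 rose and none fell in the edgeR test, against 6.21% and 5.71% of all other genes tested. DESeq2 called 4 of the 28 higher and 1 lower, Mthfd1l, and 2651 of all 16112 genes tested in either direction. At an unadjusted p under 0.05, a level not counted over all genes, edgeR gave 8 higher and 2 lower (Mthfd1l and Slc7a3). The median log2 fold change of the 28 members was 0.14, against 0.04 for all genes off chromosome 11. Copy number was not measured in these files, so the part of the chromosome in the falls was not tested.

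**Figure D4:**
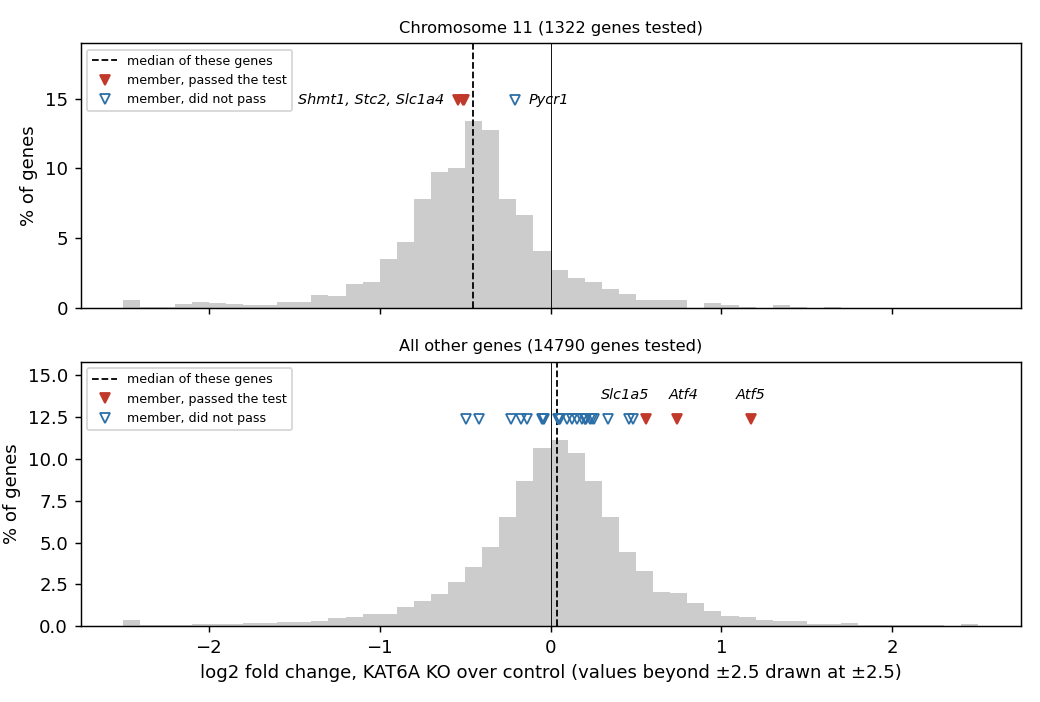
Share of tested genes by log2 fold change, KO over control, for chromosome 11 (upper panel) and all other genes (lower panel), with a dashed line at each median. Triangles mark the members: Shmt1, Stc2 and Slc1a4 sit close to the chromosome 11 median of -0.46, while Slc1a5, Atf4 and Atf5 lie to the right of the other members.

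Fold changes also followed GC content over all genes, with a median log2 fold change of -0.21 and 0.23 in the lowest and highest of 5 equal bins of transcript GC content. Atf4 has a transcript GC content of 55.1% and Atf5 of 61.3%. With an offset for GC content their log2 fold changes were 0.62 and 0.90, and both stayed called (edgeR adjusted p = 0.011 and 0.021). With that offset Cth rose and Pycr1 fell as well, which made 4 members higher and 4 lower. Of all 16112 genes tested, 2362 were then called in either direction, against 2309 without the offset.

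The authors' deposited table of their own comparison gave 4 members higher and 4 lower at an adjusted p under 0.05, against 6.94% and 10.1% of its genes with an adjusted p. These are the 6 named above with Slc7a7 (log2 fold change 0.43, adjusted p = 0.041) and Mthfd1l (-0.39, adjusted p = 0.037) in addition. In the authors' deposited table Atf4 has a log2 fold change of 0.71 and Atf5 of 1.10.

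Genes upstream of ATF4 did not pass edgeR's test. None of 16 genes for the eIF2 kinases, eIF2, its exchange factor eIF2B and the eIF2 phosphatase subunits was called, where 14.3% of all genes tested were, with log2 fold changes from -0.16 to 0.29. At an unadjusted p under 0.05, a level not counted over all genes, edgeR gave 3 higher and 0 lower (Gcn1, Eif2s2 and Ppp1r15b). DESeq2 called 1 higher, Gcn1, which encodes an activator of the eIF2 kinase GCN2, and 2651 of all 16112 genes in either direction. The most abundant, Eif2s2, a subunit of eIF2, had 531 and 458 CPM in KO libraries and 421 and 417 CPM in control libraries (log2 fold change 0.24, edgeR adjusted p = 0.144).

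Genes of basic leucine zipper factors that can pair or compete with ATF4 were lower where they passed. Of 14 tested, 3 fell and none rose by edgeR's test, against 8.57% and 5.76% of all genes tested. At an unadjusted p under 0.05, a level not counted over all genes, edgeR gave 5 lower and 0 higher. Atf3, a stress-induced relative of Atf4 and itself a target of ATF4, had 5.88 and 16.8 CPM in KO libraries, against 39.2 and 39.3 CPM in control libraries. Jun, an AP-1 subunit, had 31.2 and 21.9 CPM in KO libraries, against 61.4 and 60.8 CPM in control libraries. DESeq2 called Jun and Nfe2l1 lower but not Atf3, whose KO libraries differed widely. Nfe2l1, a regulator of proteasome genes on chromosome 11, had a log2 fold change of -0.60. Atf3 and Jun thus stood below the controls in both KO libraries, while Atf4 and Atf5 stood above.

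Of 20 cytosolic aminoacyl-tRNA synthetase genes, many of which ATF4 activates, 2 rose and none fell by edgeR's test, against 5.76% and 8.57% of all genes tested. Those that rose were Yars (log2 fold change 0.40) and Cars (0.38), for the tyrosine and cysteine enzymes, and the median of the list was 0.13. At an unadjusted p under 0.05, a level not counted over all genes, edgeR gave 6 higher and 1 lower. DESeq2 called 3 higher (Yars, Cars and Vars) and 0 lower, and 2651 of all 16112 genes in either direction. Among 31 tested genes reported elsewhere as ATF4 targets, 3 rose and 2 fell, which is 16.1% called, near the 14.3% of all genes tested. Got1, an aspartate transaminase gene, rose by a log2 fold change of 0.40, Pck2, the mitochondrial phosphoenolpyruvate carboxykinase gene, by 0.56, and Gdf15, a secreted stress hormone gene, by 0.98. Atf3 fell by a log2 fold change of 1.80 and Sqstm1, an autophagy receptor gene on chromosome 11, by 0.63. Gdf15 had 15.6 and 12.8 CPM in KO libraries, against 8.30 and 6.05 CPM in control libraries.

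Further genes of the folate and glycine cycles went both ways, with 3 of 23 higher and 3 lower, against 5.76% and 8.57% of all genes tested, and a median log2 fold change of 0.00. Amt, for a subunit of the glycine cleavage system, had 94.6 and 100.1 CPM in KO libraries, against 67.1 and 67.3 CPM in control libraries. Mthfd2l, the relative of Mthfd2, rose from a low level, with 1.61 and 1.24 CPM in KO libraries, against 0.535 and 0.513 CPM in control libraries, and DESeq2 did not call it. Aldh1l2, a mitochondrial folate enzyme gene, rose by a log2 fold change of 0.73. Mat2b on chromosome 11 (-0.65), Slc25a32, the mitochondrial folate carrier gene (-0.56), and Dld (-0.47) fell. Of 26 other amino acid transporter genes tested, 1 rose and 4 fell, against 5.76% and 8.57% of all genes tested. Slc38a3, a glutamine carrier gene, rose by 0.77 on the log2 scale. Slc1a1, the neuronal-type glutamate carrier gene of the same family as Slc1a5, had 13.5 and 17.5 CPM in KO libraries, against 34.6 and 30.2 CPM in control libraries. Slc43a2 and Slc38a10, both on chromosome 11, and Slc36a4 also fell (log2 fold changes -0.93, -0.59 and -0.85).

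**Figure D5:**
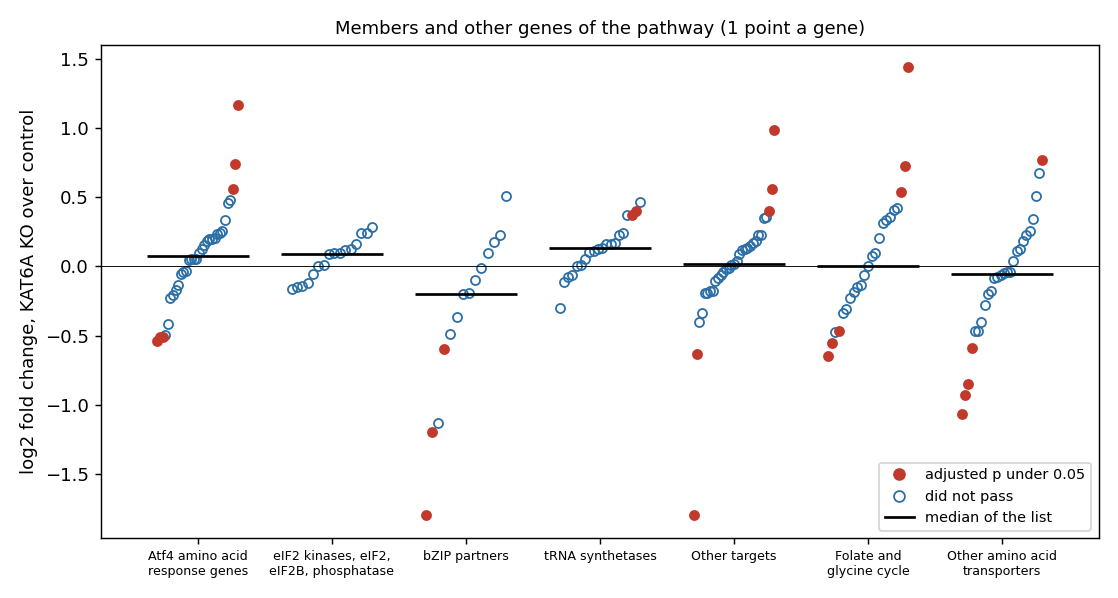
Log2 fold change, KO over control, of each tested gene of the members and of 6 further lists, ordered by value within a list, with filled points for an adjusted p under 0.05 and a line at the median. No gene of the eIF2 list is filled, the medians lie between -0.20 and 0.13, and the lowest point is Atf3 at -1.80, which belongs to a pair of lists.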

How the data were processed

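Libraries made with a stranded mRNA kit (TruSeq, per the labels' protocols) were counted by the authors with featureCounts and compared with DESeq2, per the submitters' processing notes, which give no versions. Not given in the sources used here are aligner, build, annotation and whether counting used strand. Each deposited count table lists raw counts by gene symbol, and a deposited table of normalized counts was not used. The authors' deposited comparison has no header, and its log2 fold changes and adjusted p-values were identified from the values. Counts were fitted over the whole table in R 4.3.3 with edgeR 4.0.16 (filterByExpr, TMM factors, robust quasi-likelihood test, group only), with Benjamini-Hochberg adjustment over all 16112 genes and a threshold of 0.05. Each SE was worked out from F and the fold change, and CPM use the scaled totals. Replicates differed beyond sampling noise (mean chi-square per gene 34.4 in KO and 3.70 in control libraries; SD of the log2 CPM difference 0.459 and 0.258). Lengths, positions and GC content came from GENCODE M21 (97.3% of symbols found) and promoters from RefSeq. Promoter stretches are shown for all members with a match, beyond the rule, which named called members only. Members, lists and pairs were chosen with earlier results of these data known. All members are accounted for, with full values for those called, Atf4 and Atf5, and from each further list up to 2 called genes per direction were taken by adjusted p or, with none called, the most abundant; lists with 6 or fewer called genes are named in full, and Gdf15, Aldh1l2, Dld, Slc38a10, Slc36a4 and Atf3 among the zipper factors were added in that way after their values were seen. Alternatives used DESeq2 1.42.0 and limma 3.58.1. The procedure was tested on simulated data. Python 3.11.15, pandas 2.3.3, scipy 1.17.1 and matplotlib 3.10.9 made tables, the exact test and plots.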

Additional observations from a re-analysis of the deposited data

How the results depend on the processing

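The 3 rises were called in each setting with all 4 libraries, and Atf4 and Atf5 in all 15 settings, with log2 fold changes of 0.62 to 0.79 and 0.88 to 1.32. Counts of members called depended on the setting, as did counts over all genes tested. With a KO library left out, far more of all genes were called than in the main fit. With a control left out, fewer were called. The range in the next sentence thus follows a shift over all genes and is not a trait of the members. Leaving out 1 library gave 2 to 18 members higher and 0 to 8 lower: with a control left out 2 were higher and 0 lower, and with a KO library left out the spread came from the control pair alone. Upper quartile scaling and a minimum of 1 CPM in 2 libraries each gave 1 lower. In either direction these settings called 2351 of 16112 and 2150 of 13708 genes tested. Without the genes of chromosome 11, chosen after earlier results were known, 3 were higher and 0 lower, since the 3 members that fell are on it. Of the 14790 genes tested in that setting, 1216 were called in either direction. With the replicate number as a block 5 were higher, and with the block and a GC-content offset 6 were higher and 6 lower. Of all 16112 genes tested, 2309 were called in the main fit, 3760 with the block and 3094 with the block and offset. KO and control libraries share only a number (correlation of deviations 0.095 over genes), and all 6 calls were kept under the block. The median log2 fold change of the members ran from 0.01 to 0.15. None of the 6 calls changed sign. Phgdh, not called with all 4 libraries, had a log2 fold change of 0.24 without KO replicate 1 and of -0.18 without KO replicate 2. Each of these values rests on 1 KO library. The cause of these shifts was not tested otherwise.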
